A study of Mus musculus and Homo sapiens with 12 samples.

Results

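The tRNAs that carry glutamine were described in 12 tRNA Charge-Seq libraries. All lines of the deposited read tables whose name holds tRNA-Gln were taken as members, without use of any measured value, and they were summed by anticodon into the isoacceptors tRNA-Gln-CTG and tRNA-Gln-TTG. The mouse tables hold 10 such lines of 224 tRNA gene lines, 5 for each anticodon. The human tables hold 11 of 260, with 7 for CTG and 4 for TTG. In all, the members were 21 of 484 gene lines and 2 of 53 isoacceptors.

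The anticodon CTG reads the glutamine codon CAG, and the anticodon TTG reads CAA and, by wobble, also CAG. A single cytosolic enzyme, glutaminyl-tRNA synthetase (QARS1), attaches glutamine to both. It belongs to the multi-tRNA synthetase complex, together with EPRS1, the enzyme that charges both glutamate and proline tRNAs. Glutaminyl-tRNA synthetase, like the glutamyl and arginyl enzymes, activates its amino acid only when the tRNA is bound. Uncharged tRNA is a ligand of the kinase GCN2, which phosphorylates the initiation factor eIF2.

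MEF cells are mouse embryonic fibroblasts, and they were either left untreated (NT) or given 100 nM halofuginone (HF), a drug that occupies the prolyl site of EPRS1. Both MEF groups were kept in DMEM with dialyzed serum. The labels give 6 h of HF, and the methods of the study give 3 h. NTERT cells are an immortalized line of human keratinocytes, and they were untreated (NT) or irradiated with 400 J/m2 of UV-B and left to recover for 3 h (UV). Each of the 4 groups had 3 libraries. The study describes its replicates as biological, but the labels do not state that these libraries came from separate cultures, so the p-values measure the spread between these libraries, which may be technical. The tables hold tRNA reads alone, so neither cell type was checked against marker genes.

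In this assay periodate and a basic solution remove the last base of an uncharged tRNA, while the amino acid protects a charged one. A read that ends in CCA was therefore counted as charged and one that ends in CC as uncharged, and percent charged is CCA over CCA plus CC. The columns of the tables carry no names. The second was read as CCA, which is the reading under which the charged share of proline tRNA falls under HF, so the direction at proline is not independent of that reading. Reads on tRNA numbered 617693 to 3013132 in the MEF NT libraries, 1922139 to 6286863 in HF, 253693 to 1992671 in NTERT NT and 312283 to 1583619 in UV. The share of reads that aligned to tRNA was 3.43% to 9.52% in MEF NT and 19.1% to 27.8% in HF, so the drug and this property of the libraries cannot be told apart. In NTERT it was 1.33% to 4.66% in NT and 1.53% to 3.71% in UV. The median percent charged over isoacceptors was 71.9%, 55.7% and 80.7% in the MEF NT libraries 1 to 3 and 90.1%, 86.9% and 78.9% in the HF libraries. In NTERT it was 48.0%, 48.8% and 49.9% in NT and 45.0% to 52.8% in UV. Each glutamine isoacceptor had 4868 to 345712 reads with an end in a MEF library and 1472 to 85796 in an NTERT library. The widest 95% Wilson interval was 2.69 percentage points in MEF and 4.91 in NTERT, and it covers counting error only. The adapters held random bases, but the methods of the study describe no collapsing of duplicate reads by them.

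RefSeq lists 16 glutamine tRNA genes of 72 bases on the mouse build GRCm38.p6, 10 with the anticodon CTG and 6 with TTG. Of the CTG genes, 4 lie on chromosome 3 between 96341156 and 97681530 and 4 on chromosome 13 between 21172351 and 21996652. The other two CTG genes are at chr9:64738046-64738117 and chr11:69124607-69124678. Of the TTG genes, 3 lie on chromosome 13 between 21268469 and 23519684, and 1 is at chrX:13859166-13859237. The TTG gene at chr11:86262168-86262239 lies in Brip1os, outside its exons. The TTG gene at chr11:95859172-95859243 overlaps an exon of Gm11527 and the gene 4833417C18Rik. The rest overlap no gene of the annotation. The gene lines of the read tables carry another numbering and were not paired with these positions. For the human tables, tRNAs of identical sequence had been collapsed before alignment, so a line can stand for several genes, and the line numbers of the mouse and human tables do not name matching genes.

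tRNA-Gln-CTG was the major isoacceptor in every library. In MEF NT it took 9.75%, 7.49% and 7.69% of the tRNA reads (8.31% ± 1.25, SD, n = 3), and in HF 6.11%, 8.31% and 5.72% (6.71% ± 1.39). tRNA-Gln-TTG took 1.06%, 0.880% and 0.631% in NT (0.857% ± 0.216) and 1.06%, 0.760% and 0.924% in HF (0.916% ± 0.152). The NT and HF ranges overlapped for both isoacceptors. By mean reads CTG was 6th of 48 isoacceptors in both MEF groups, and TTG was 14th in NT and 18th in HF. On log2 reads scaled by TMM to a common total, the HF minus NT difference was -0.16 for CTG (SE 0.35, 95% interval -0.85 to 0.52, adjusted p = 0.827 by limma) and 0.27 for TTG (SE 0.35, interval -0.42 to 0.95, adjusted p = 0.666). Neither passed the threshold of 0.05, where 14.6% of the 48 isoacceptors did.

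In the keratinocytes the shares were close to these. CTG took 8.51%, 7.67% and 7.07% of the tRNA reads in NTERT NT (7.75% ± 0.725) and 5.28%, 8.71% and 6.34% after UV (6.78% ± 1.76). TTG took 1.16%, 0.836% and 0.875% in NT (0.955% ± 0.174) and 0.825%, 1.07% and 1.14% after UV (1.01% ± 0.165). The groups overlapped again. The UV minus NT difference was -0.27 for CTG (SE 0.36, 95% interval -1.02 to 0.49, adjusted p = 0.704 by limma) and 0.04 for TTG (SE 0.36, interval -0.73 to 0.80, adjusted p = 0.953). Among 48 isoacceptors 0 passed by limma, and 4 had an unadjusted p under 0.05.

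If reads follow tRNA amounts, which was not tested, the ratio of CTG to TTG reads bears on how much tRNA can read CAA. This ratio was 9.19, 8.51 and 12.2 in MEF NT and 5.74, 10.9 and 6.19 in HF. It was 7.37, 9.18 and 8.08 in NTERT NT and 6.40, 8.15 and 5.56 after UV. The treated libraries overlapped the untreated ones in both cell types. The mean log2 ratio differed by -0.43 in MEF (p = 0.3, two-sided exact permutation test over 20 labelings, smallest possible p 0.1) and by -0.30 in NTERT (p = 0.3, same exact test). Single libraries moved both values, from -0.72 without HF library 2 to -0.26 without HF library 1 in MEF, and from -0.45 without UV library 2 to -0.18 without UV library 3 in NTERT.

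**Figure D1:**
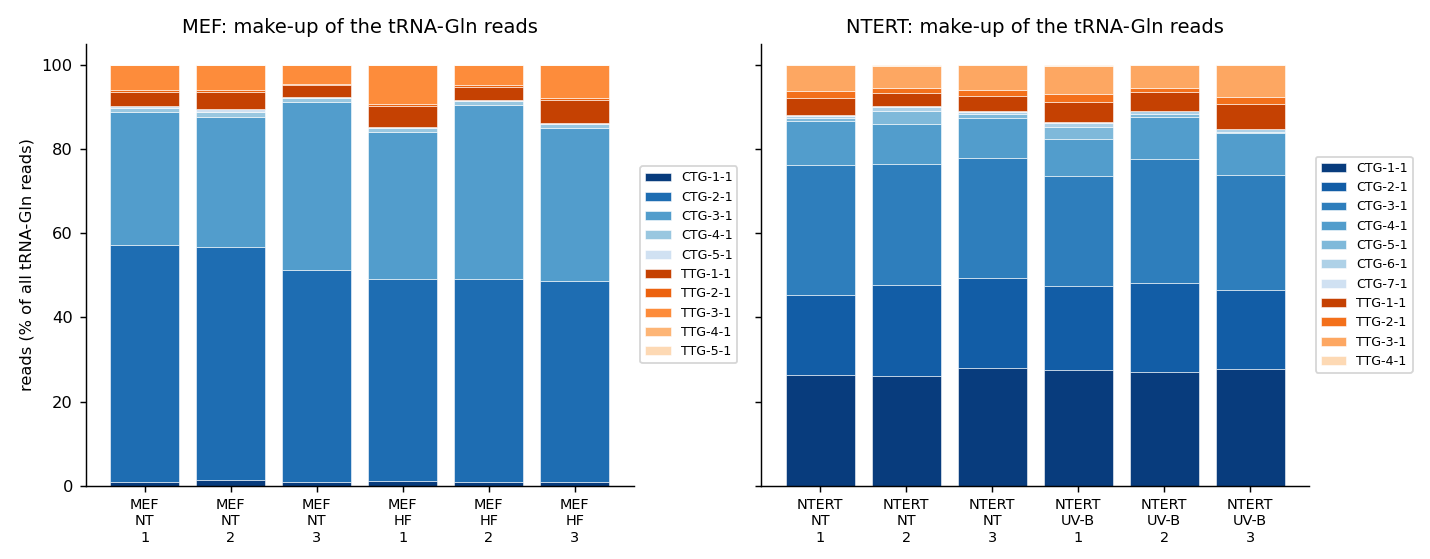
Percent of all glutamine tRNA reads taken by each gene line in each library, for MEF and NTERT cells. CTG-2-1 and CTG-3-1 led in all 6 MEF libraries, while in NTERT the reads were spread over CTG-3-1, CTG-1-1 and CTG-2-1.

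A few gene lines held most of the reads, and they differed between the species' tables. Of all glutamine reads in a MEF library, CTG-2-1 took 47.8% to 56.3% and CTG-3-1 30.9% to 41.3%. The largest TTG lines there were TTG-3-1 (4.39% to 9.37%) and TTG-1-1 (2.87% to 5.68%). In NTERT, CTG-3-1 took 26.3% to 30.9%, CTG-1-1 26.1% to 28.0%, CTG-2-1 18.7% to 21.6% and CTG-4-1 8.66% to 10.6%. There the largest TTG lines were TTG-3-1 (5.32% to 7.65%) and TTG-1-1 (3.23% to 6.04%). The lines of one anticodon can be close in sequence, and their sequences were not compared here, so the split of reads between them is uncertain. A mean of 50 reads with an end was reached by 8 of the 10 MEF lines, all 5 CTG lines and 3 TTG lines, and by 9 of the 11 NTERT lines, 6 CTG and 3 TTG. The most read of those below it were TTG-5-1 in MEF, with 4 to 24 reads with an end, and CTG-7-1 in NTERT, with 11 to 51.

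The read share of the minor MEF line CTG-5-1 fell under HF. It took 0.0380%, 0.0474% and 0.0148% of the tRNA reads in NT and 0.0128%, 0.0121% and 0.0125% in HF, from 457, 293 and 445 reads in NT and 246, 268 and 784 in HF. Every HF value was under every NT value, a pattern that 17% of the 147 lines tested shared, but NT library 3 was near the HF values. The log2 difference was -1.22 (SE 0.32, adjusted p = 0.0370 by limma), and 12.2% of the lines passed, with 6.8% of the lines passing as lower. The call was lost on leaving out any library except NT library 3 (differences -1.49 to -1.01, adjusted p 0.00916 to 0.239 by limma), with reads that carry an end alone (-0.89, adjusted p = 0.0940) and with no minimum of reads (adjusted p = 0.122). The other 7 MEF lines differed by -0.41 to 0.18 and did not pass. In NTERT 0 of the 10 lines tested passed by limma, nor did any of the 219 lines, of which 8 had an unadjusted p under 0.05.

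**Figure D2:**
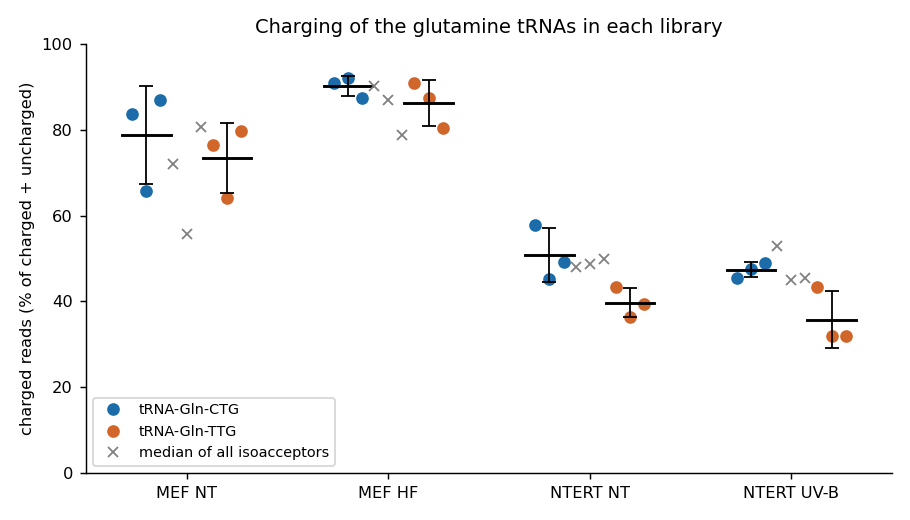
Percent charged of tRNA-Gln-CTG and tRNA-Gln-TTG in each of the 12 libraries, with the group mean and SD. In MEF the HF libraries lie above the NT libraries for both isoacceptors, from 80.4% to 92.1% against 64.1% to 86.9%, and in NTERT the groups overlap.

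Percent charged of glutamine tRNA was higher in all HF libraries than in all NT libraries of MEF, but the difference did not pass the test. For CTG it was 83.7%, 65.8% and 86.9% in NT (78.8% ± 11.4, SD, n = 3) and 91.0%, 92.1% and 87.5% in HF (90.2% ± 2.42). For TTG it was 76.4%, 64.1% and 79.8% in NT (73.5% ± 8.24) and 90.9%, 87.5% and 80.4% in HF (86.3% ± 5.38). NT library 2 was the lowest for both isoacceptors and was also the library with the lowest median over all isoacceptors. HF library 3 and NT library 3 were the nearest pair at both. Separation of this kind, with all HF libraries above all NT libraries, was seen in 22.9% of the 48 isoacceptors.

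As log2 of charged over uncharged reads, the HF minus NT difference was 1.21 for CTG and 1.21 for TTG, each with SE 0.73, a 95% interval of -0.22 to 2.65 at its widest and adjusted p = 0.166 by limma. The threshold was passed by 18.8% of the isoacceptors, 6 higher and 3 lower. The median difference over all 48 was also 1.21, and 93.8% of the isoacceptors had a positive difference, and the glutamine isoacceptors were 24th and 23rd in order of size. With the median of each library subtracted, the direction turned, to -0.14 for each (SE 0.30 for CTG and 0.27 for TTG, adjusted p = 0.818 by limma for both), and 6.25% of the isoacceptors passed. Glutamine tRNA thus lay in the middle of the isoacceptors in this comparison.

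With both isoacceptors combined, percent charged was 83.0%, 65.6% and 86.4% in NT (78.3% ± 11.1) and 91.0%, 91.7% and 86.5% in HF (89.7% ± 2.84). The HF libraries were again above the NT libraries, the nearest pair being HF library 3 and NT library 3. The log2 difference was 1.20 (SE 0.72, adjusted p = 0.144 by limma), beside a median of 1.24 over 21 amino acids, of which 9.52% passed. The HF libraries separated upward in 28.6% of them. Without NT library 3 the difference for glutamine was 1.55 and passed (adjusted p = 0.0481 by limma), as did 14 of the 21 amino acids.

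In NTERT cells the charged share of glutamine tRNA did not separate by UV. For CTG it was 57.7%, 45.3% and 49.3% in NT (50.8% ± 6.34) and 45.5%, 47.6% and 49.0% after UV (47.3% ± 1.77). For TTG it was 43.3%, 36.4% and 39.4% in NT (39.7% ± 3.48) and 43.3%, 31.9% and 31.8% after UV (35.7% ± 6.60). NT library 1 was the highest for CTG, and UV libraries 2 and 3 were the lowest for TTG, while UV library 1 was as high as the highest NT library. The UV minus NT log2 difference was -0.20 for CTG (SE 0.30, 95% interval -0.90 to 0.50) and -0.26 for TTG (SE 0.32, interval -1.0 to 0.49), with adjusted p = 0.986 by limma for both. The median over 47 isoacceptors was 0.06, and the glutamine isoacceptors were 38th and 41st in order. Of these 47, 0 passed by limma, and 0 had an unadjusted p under 0.05. Combined glutamine tRNA was 55.8%, 44.3% and 47.9% charged in NT (49.3% ± 5.85) and 45.1%, 45.7% and 46.2% after UV (45.7% ± 0.516), a log2 difference of -0.21 (SE 0.26, adjusted p = 0.924 by limma).

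**Figure D3:**
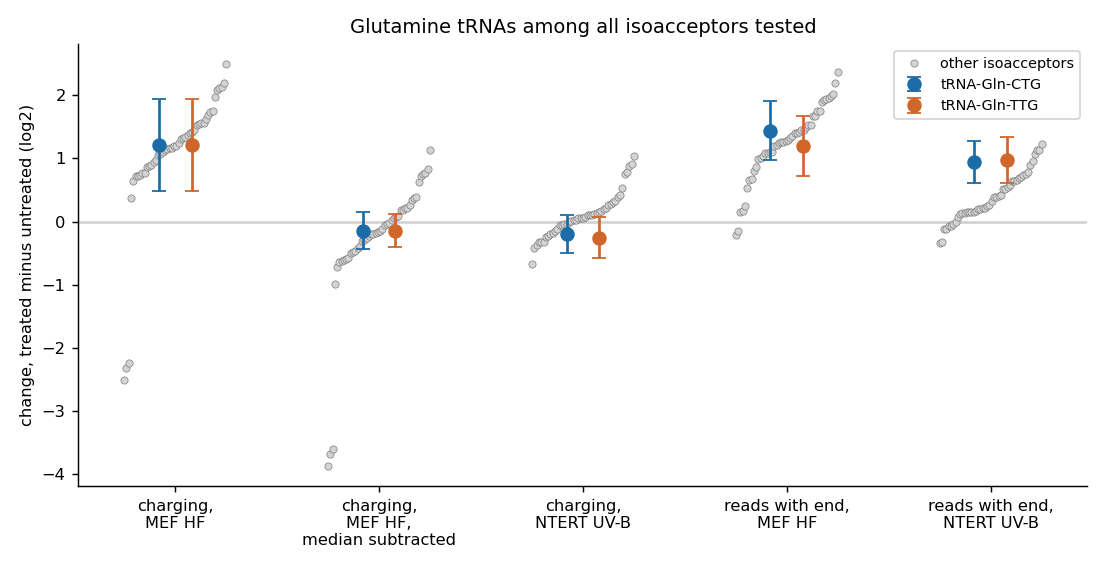
Log2 differences, treated minus untreated, for every isoacceptor tested. The columns are charging in MEF, charging in MEF with library medians subtracted, charging in NTERT, and reads with an end in MEF and in NTERT. The glutamine isoacceptors are marked at the centre of each column, and the others are in order of size. In charging without subtraction, the glutamine isoacceptors sit at 1.21 in MEF, equal to the median, and at -0.20 and -0.26 in NTERT, where the median is 0.06.

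CTG was charged to a higher percentage than TTG in all 6 MEF and all 6 NTERT libraries. The gap ranged from 0.0887 to 7.24 percentage points in MEF and from 2.13 to 17.1 in NTERT. This order holds for reads summed over lines. With equal weights for the gene lines, the mean log2 gap in MEF turned, from 0.51 in each group to -0.66 ± 0.50 in NT and -0.48 ± 0.32 in HF (SD, n = 3), while in NTERT it was 0.18 ± 0.25 in NT and 0.23 ± 0.66 after UV. In that weighting the MEF line CTG-5-1, with 0.134% to 0.567% of the glutamine reads, counts as much as CTG-2-1. Its log2 ratio lay at -3.96 relative to CTG-2-1 on average, and the gap without it was not computed. In order of mean percent charged, CTG was 5th and TTG 18th of 48 in both MEF groups. In NTERT, CTG was 24th in NT and 26th after UV of 47 isoacceptors, and TTG 32nd and 34th.

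This gap did not change with treatment beyond the spread of the libraries. As a within-library log2 difference, CTG minus TTG was 0.66, 0.10 and 0.76 in MEF NT and 0.02, 0.74 and 0.77 in HF. One library of each group, NT 2 and HF 1, had almost no gap. The HF mean minus the NT mean of this gap was -0.00040, with p = 1 in the exact permutation test, two-sided. In NTERT it was 0.84, 0.53 and 0.58 in NT and 0.12, 0.95 and 1.04 after UV, where UV library 1 was the lowest and the other two the highest of the 6. The change was 0.06 (p = 0.9, same exact test), and 0.35 without UV library 1 (p = 0.2, the smallest p possible without 1 library).

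**Figure D4:**
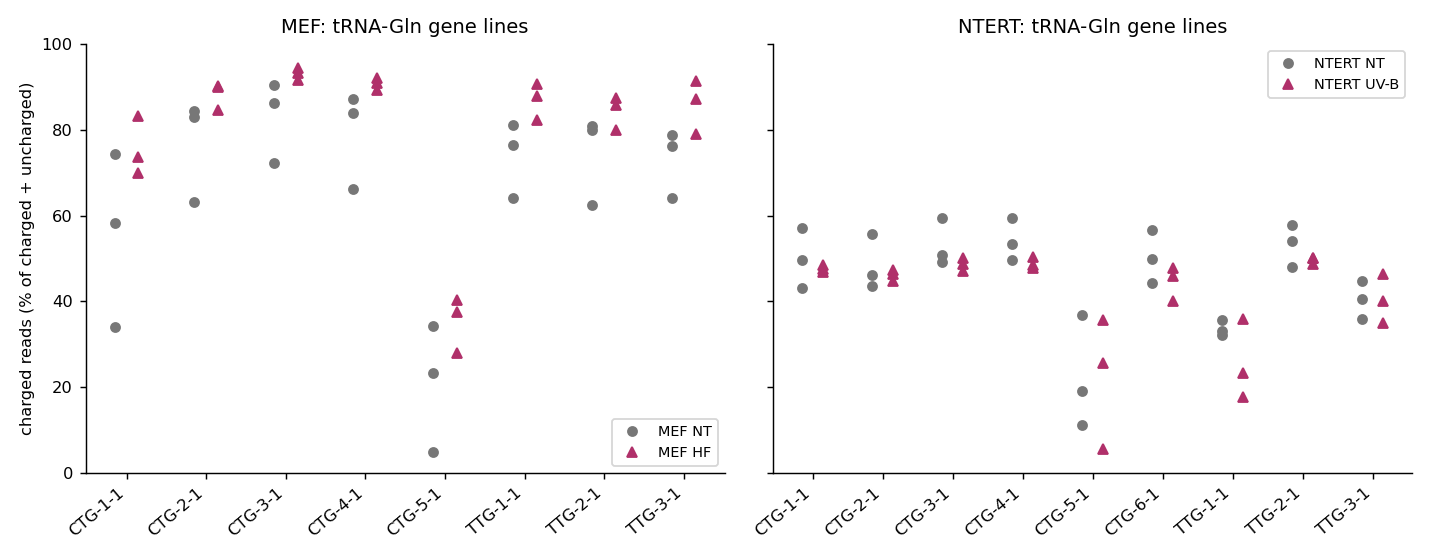
Percent charged of each glutamine tRNA gene line with a mean of at least 50 reads with an end, 1 point per library, in MEF and NTERT cells. Of the lines plotted, CTG-5-1 is the lowest on average in both tables, with 5.0% to 40.3% in MEF and 5.70% to 36.9% in NTERT.

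The gene lines of one isoacceptor differed in percent charged within the same libraries, with the split of reads between lines uncertain as stated above. In MEF, CTG-2-1 was 63.2% to 90.3% charged and CTG-3-1 72.2% to 94.5%. Relative to CTG-2-1, the most read line, the log2 ratio was higher by 0.71 ± 0.23 (SD over 6 libraries) for CTG-3-1 and by 0.28 ± 0.19 for CTG-4-1, each in 6 of 6 libraries. CTG-1-1 stood at -1.38 ± 0.42 and CTG-5-1 at -3.96 ± 0.52, lower in 6 of 6. Among the TTG lines, TTG-1-1 (0.07 ± 0.15) and TTG-2-1 (-0.06 ± 0.40) were within 1 SD of TTG-3-1.

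In MEF, CTG-5-1 was the lowest of the lines with a mean of at least 50 reads in both ends and charging. It was 23.3%, 5.0% and 34.4% charged in NT and 40.3%, 37.6% and 28.0% in HF, from 120 to 357 reads with an end. The groups overlapped. Of its reads, 39.4% to 64.6% carried an end, against 89.0% to 98.7% for CTG-3-1. The human CTG-5-1 line, which is not known to be the matching gene, was 36.9%, 11.2% and 19.1% charged in NTERT NT and 5.70%, 25.7% and 35.7% after UV. Its log2 ratio lay 2.08 below that of CTG-3-1 on average (-2.08 ± 1.12, lower in 6 of 6 libraries), and 44.6% to 67.6% of its reads carried an end. It did not stand alone there, since 43.5% to 68.6% of the CTG-6-1 reads and 26.8% to 55.6% of the CTG-7-1 reads carried an end, and the sparsely read CTG-7-1 stood at -2.30 ± 1.14 in charging.

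In NTERT the major CTG lines were charged to much the same percentage and the TTG lines were not. Relative to CTG-3-1 (47.1% to 59.3% charged), CTG-1-1 stood at -0.12 ± 0.12 and CTG-2-1 at -0.21 ± 0.08, both lower in 6 of 6 libraries, CTG-4-1 at 0.03 ± 0.06 and CTG-6-1 at -0.20 ± 0.18. Relative to TTG-3-1 (35.1% to 46.4%), TTG-1-1 stood at -0.73 ± 0.50 and TTG-2-1 at 0.64 ± 0.27, the first lower and the second higher in 6 of 6. TTG-1-1 was 35.6%, 33.1% and 32.1% charged in NT and 35.9%, 17.7% and 23.2% after UV. TTG-2-1 was 57.9%, 48.1% and 54.0% in NT and 48.7%, 50.1% and 50.1% after UV, so its percentage was at the level of the CTG lines. The groups overlapped for both. The lowest values of TTG-1-1 were those of UV libraries 2 and 3, which were also the lowest for TTG as a whole.

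By treatment, no line passed the test of charging. The HF minus NT difference of the 8 MEF lines ran from 0.85 (TTG-2-1) to 1.37 (CTG-5-1), with a median of 1.25 beside 1.30 over all 139 lines and adjusted p from 0.157 to 0.310 by limma. Of all lines 14.4% passed, and 96.4% had a positive difference. HF libraries were all above NT libraries for CTG-2-1, CTG-3-1, CTG-4-1, TTG-1-1 and TTG-3-1, which is 5 of 8, against 28.1% of all lines. With library medians subtracted, 7 of the 8 differences were negative and none passed, where 42.4% of all lines were positive and 3.6% passed. Without NT library 3, CTG-1-1, CTG-3-1 and CTG-5-1 passed (1.90, 1.76 and 2.04, adjusted p 0.0371, 0.0491 and 0.0295 by limma), as did 71 of all 139 lines. In NTERT the 9 lines ran from -0.61 (TTG-1-1) to -0.00068 (TTG-3-1), with a median of -0.21 beside 0.08 over 168 lines and adjusted p = 0.999 by limma for each. Of all 168, 57.7% had a positive difference, 0 passed and 3 had an unadjusted p under 0.05.

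**Figure D5:**
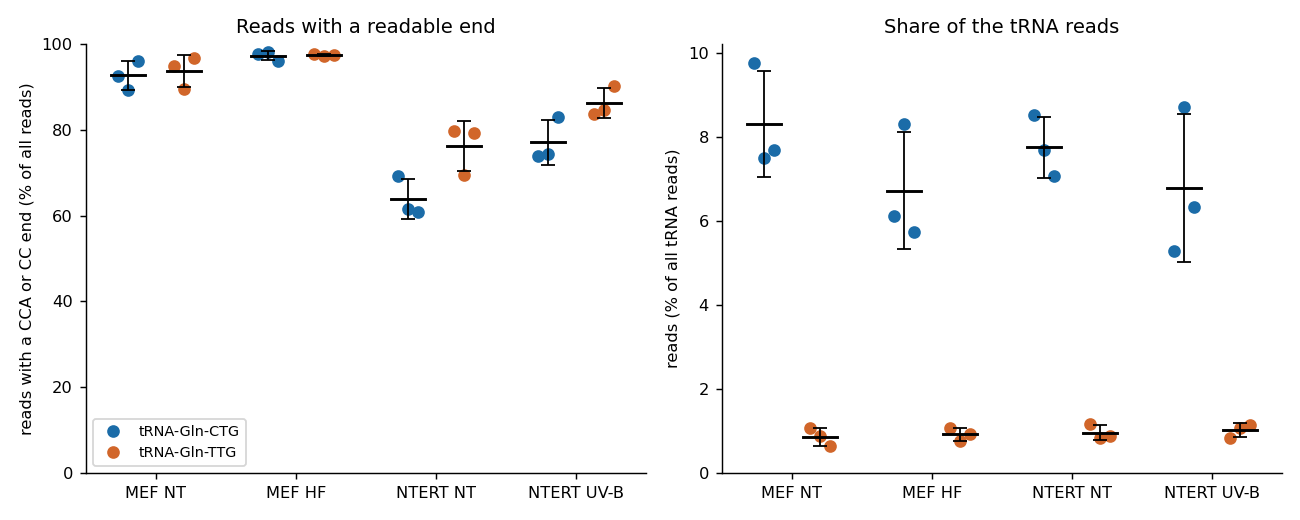
Percent of glutamine tRNA reads that end in CCA or CC and percent of tRNA reads taken by each isoacceptor, per library, with group means. In NTERT the UV libraries lie above the NT libraries in reads with an end, for CTG from 73.8% to 83.1% against 60.9% to 69.3%, while the shares of tRNA reads overlap.

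The share of glutamine tRNA reads with a readable end was higher after treatment in both cell types, and the MEF difference passed the test while the NTERT difference did not. Whether the cell types differ was not tested. In MEF it was 92.6%, 89.3% and 96.1% for CTG in NT (92.7% ± 3.37) and 97.6%, 98.1% and 96.1% in HF (97.3% ± 1.06). For TTG it was 94.8%, 89.6% and 96.6% in NT (93.7% ± 3.66) and 97.7%, 97.1% and 97.4% in HF (97.4% ± 0.306). The groups touched for CTG, at library 3 of each, and did not overlap for TTG. The log2 ratio of reads with an end to reads without one rose by 1.44 for CTG (SE 0.47, adjusted p = 0.00674 by limma) and by 1.20 for TTG (SE 0.47, adjusted p = 0.0177). Of all isoacceptors 79.2% passed, with a median of 1.29, and 72.9% had all HF libraries above all NT libraries. With library medians subtracted the differences were 0.36 and 0.13 (adjusted p = 0.561 and 0.808 by limma), and 0 of 48 passed, with 13 at an unadjusted p under 0.05. The call was also lost for CTG without NT library 2 (1.08 to 1.86 over the libraries left out, adjusted p = 0.0719 by limma) or HF library 2 (0.0531), and for TTG (0.73 to 1.59) without NT library 2 (0.0868) and without either the first or the third HF library (0.0645 and 0.0555).

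In NTERT, 69.3%, 61.6% and 60.9% of the CTG reads carried an end in NT (63.9% ± 4.65) and 73.8%, 74.4% and 83.1% after UV (77.1% ± 5.20). For TTG these were 79.8%, 69.4% and 79.3% in NT (76.2% ± 5.86) and 83.7%, 84.6% and 90.2% after UV (86.2% ± 3.51). All UV libraries were above all NT libraries for both isoacceptors, which 12.5% of the 48 isoacceptors showed. The log2 difference was 0.94 for CTG (SE 0.33, adjusted p = 0.650 by limma) and 0.97 for TTG (SE 0.36, adjusted p = 0.650), the 7th and 5th highest of 48, beside a median of 0.36. Of the 48, 0 passed by limma and 3 had an unadjusted p under 0.05, with glutamine at 0.0244 and 0.0321 by limma before adjustment. The end-carrying share of TTG exceeded that of CTG in all 6 NTERT libraries (CTG minus TTG from -18.4 to -7.11 percentage points), and in 5 of 6 MEF libraries.

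By gene line, 2 of the 8 MEF lines rose in end-carrying reads under HF, CTG-2-1 by 1.52 (adjusted p = 0.0281 by limma) and TTG-2-1 by 1.499 (adjusted p = 0.0364), where 44.9% of 147 lines passed, 44.2% as higher. The other 6 ran from 0.43 to 1.35 without passing, and with library medians subtracted 0 of the 8 passed and 4 turned direction, the farthest being CTG-1-1 at -0.76. In NTERT 8 of 10 lines had a positive difference, as did 80.4% of all lines, and 0 passed. Across all 219 lines 0 passed by limma, and 13 had an unadjusted p under 0.05. CTG-7-1 (-0.81) and CTG-6-1 (-0.01), both with few reads, were the lines below zero.

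Glutamate and proline tRNAs are charged by EPRS1, which sits in the same complex as the glutamine enzyme. Combined glutamate tRNA was 63.4% ± 19.6 charged in MEF NT and 89.4% ± 3.01 in HF (n = 3 each), and combined proline tRNA 49.1% ± 6.71 and 18.0% ± 11. As a within-library log2 difference, glutamine minus glutamate was 1.56, 1.26 and 0.33 in NT and 0.01, 0.07 and 0.06 in HF. All HF libraries were below all NT libraries, and near zero. The HF mean minus the NT mean was -1.0, with an adjusted p = 0.1 in the exact permutation test, two-sided, the smallest it can give. Glutamine minus proline was 2.31, 1.39 and 2.35 in NT and 4.56, 5.86 and 6.16 in HF, with no overlap, a change of 3.51 (adjusted p = 0.1, same exact test). Combined glutamine tRNA itself changed by 1.20, beside a median of 1.24 over 21 amino acids. The glutamate isoacceptors changed by 2.08 and 2.13, and the proline isoacceptors by -2.52 to -2.25. Differences to glutamate and proline were not computed for other amino acids, so neither change is shown to be particular to glutamine.

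In NTERT, glutamine minus glutamate was -0.35, -0.93 and -0.50 in NT and -2.85, -0.88 and -1.0 after UV. With reads summed over lines, glutamate tRNA was thus the more charged in every NTERT library and glutamine tRNA in every MEF library. With equal weights for the gene lines, where the sparsely read CTG-5-1 counts as much as CTG-2-1, the MEF order turned in HF. The mean glutamine minus glutamate difference was then -0.66 ± 0.11 in HF, beside 0.16 ± 0.58 in NT (SD, n = 3). UV library 1 was far below the other five. The change was -0.98 (adjusted p = 0.4, exact permutation test), and -0.35 without UV library 1. Glutamine minus proline was 1.69, 1.72 and 1.80 in NT and 0.69, 2.24 and 1.88 after UV, with UV library 1 again the lowest, a change of -0.13 (adjusted p = 1, exact permutation test), which turned to 0.32 without that library.

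The amino acids whose synthetases also need the tRNA for activation, glutamate and arginine, have 7 isoacceptors among those tested in MEF. Of these 3 rose under HF and 4 did not pass, where 12.5% of all isoacceptors rose, and the median difference was 1.54 beside 1.21 over all. The ones that rose were Glu-CTC (2.08, adjusted p = 0.0274 by limma), Glu-TTC (2.13, adjusted p = 0.0271) and Arg-TCT (2.50, adjusted p = 0.0171), and with library medians subtracted 0 of the 7 passed. Asparagine and aspartate, the metabolic neighbours of glutamine, have 1 isoacceptor each, at 1.07 for Asn-GTT and 1.69 for Asp-GTC (adjusted p = 0.0821 by limma), and neither passed. Of the 22 isoacceptors other than glutamine charged by the multi-tRNA synthetase complex, 3 rose, 3 fell and 16 did not pass, with a median of 1.18, where 12.5% of all isoacceptors rose and 6.25% fell. Those that rose were the glutamate and arginine isoacceptors just named. Those that fell were the proline isoacceptors Pro-AGG (-2.52), Pro-CGG (-2.33) and Pro-TGG (-2.25). With library medians subtracted none of the 22 rose and 3 fell. In NTERT none of these isoacceptors passed, and the medians were -0.04 for the 7 and 0.07 for the 22, beside 0.06 over all.

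The isoacceptors whose charging followed combined glutamine tRNA most closely were taken from Pearson's r of the log2 ratio over the 6 libraries of a cell type, which share depth and handling. Those named are the 3 highest of 46 isoacceptors in MEF and of 45 in NTERT, and their r was not tested. In MEF these were Arg-CCG (0.989), Gly-GCC (0.988) and Leu-CAG (0.980), where 25 of 46 isoacceptors were over 0.9 and the median was 0.903. After subtraction of the library median they were Ser-CGA (0.983), Leu-CAA (0.884) and Gly-GCC (0.854), with a median of 0.182. In NTERT they were Ser-TGA (0.924), Trp-CCA (0.812) and Ser-AGA (0.712), with a median of 0.0169 over 45, and after subtraction Ser-TGA (0.974), Trp-CCA (0.895) and Cys-GCA (0.824). Combined glutamine tRNA in NTERT was highest in NT library 1, at 55.8% charged, beside a median of 45.9% over the 6 libraries. The NTERT values of r before subtraction can thus rest largely on that library. The glutamine isoacceptors themselves had r = 0.926 with each other in MEF, which fell to 0.0999 after subtraction. In NTERT their r was 0.355 and 0.341.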

How the data were processed

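The authors converted RNA by periodate oxidation and deacylation, sequenced it, trimmed reads with cutadapt (Trim Galore in the submitters' notes), aligned them with bowtie2 to tRNA sequences and deposited, per library, whole-number read counts for each tRNA gene without normalization: all reads, reads ending in CCA and reads ending in CC. The notes name builds GRCm38/mm10 and GRCh38/hg38, and the mouse tRNA set is not given in the sources used here. Column meaning is not given in the files.

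Gene lines were summed by anticodon and by amino acid (iMet as Met). Groups and replicate numbers were taken from the labels. Tests used limma 3.58.1 (lmFit, eBayes) in R 4.3.3 on all features of a cell type with a mean of at least 50 reads, a pseudocount of 0.5 and Benjamini-Hochberg adjustment with a threshold of 0.05. Charging was log2 of charged to uncharged reads, read share log2 of reads scaled to a common total by TMM (trims 30% and 5%), and end-carrying log2 of reads with to without an end. In MEF the charging fit and the read-share fit by isoacceptor each gave 1 SE shared by all features. Single values were compared by exact permutation over 20 labelings. Scripts ran under Python 3.11.15 with scipy 1.17.1, numpy 2.4.6 and pandas 2.3.3, and the tests were tried on simulated data. Positions came from RefSeq.

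Named were both isoacceptors, their sum, each glutamine line with a mean of at least 50 reads with an end, the most read line below that, and the 3 isoacceptors most alike. The members and lists were chosen with earlier results of these data known. End-carrying reads by gene line were added after seeing the data. Alternatives were other pseudocounts, minimums, scalings, weights and tests, median subtraction, a replicate block and leaving out each library. For read share, the edgeR count model was left out, since the check of units did not cover tables of this layout, though the values are whole numbers.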

Additional observations from a re-analysis of the deposited data

How the results depend on the processing

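Subtracting the library median turned the MEF charging differences, to -0.14 for CTG and -0.14 for TTG (also with the replicate block) and -0.16 for combined glutamine, and those of 7 gene lines: CTG-1-1 -0.059, CTG-2-1 -0.25, CTG-3-1 -0.015, CTG-4-1 -0.11, TTG-1-1 -0.14, TTG-2-1 -0.52 and TTG-3-1 -0.15. It took the end-carrying differences in MEF to 0.36 (CTG) and 0.13 (TTG), with 0 isoacceptors and 0 gene lines of glutamine past the threshold. The CTG minus TTG change in MEF, at zero by size, became 8.54e-05 with a pseudocount of 5 and 0.18 with equal weights for genes.

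The read-share call of CTG-5-1 in MEF was lost with reads that carry an end (-0.89) and with no minimum (-1.22), which left 0 glutamine lines called. Leaving out each library gave -1.49 to -1.01 and 0 to 1 lines called. In the same way, end-carrying in MEF ran from 1.08 to 1.86 for CTG, lost without NT 2 (adjusted p = 0.0719 by limma) or HF 2 (0.0531), and from 0.73 to 1.59 for TTG, lost without NT 2 (0.0868), HF 1 (0.0645) or HF 3 (0.0555), so that 0 to 2 were called. MEF charging of combined glutamine ran from 0.68 to 1.55 (0 to 1 called), and 0 to 3 gene lines were called. Values near zero changed sign: the CTG minus TTG change (-0.20 to 0.25 in MEF, -0.11 to 0.35 in NTERT), TTG read share (-0.010 to 0.46 in MEF, -0.15 to 0.24 in NTERT), CTG charging in NTERT (-0.36 to 0.0025) and glutamine minus proline in NTERT (-0.45 to 0.32). In NTERT, up to 4 of 9 gene lines turned in charging and 1 to 6 of 10 in read share, none of them called.

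Over all isoacceptors, the 9 charging calls in MEF became 3 with the median subtracted, 0 with the replicate block, with the test of the study's methods or with quasi-binomial regression, and 0 to 22 on leaving out a library. The 7 read-share calls became 1 with library totals or median-of-ratios factors, 2 with reads that carry an end and 4 with no minimum. The 38 end-carrying calls became 0 with the median subtracted. Whether same-numbered libraries pair was not settled. In no measure were all 3 correlations over 0.1 (charging -0.11 to -0.03 in MEF, -0.49 to 0.02 in NTERT). At most 4 of 6 libraries correlated best with their own number. With 3 libraries a group, such a rule cannot exclude pairing. In NTERT read share, pairs 2 and 3 stood at 0.59 and 0.53, above all other pairings (at most 0.25), while pair 1 stood at -0.31. Over all 219 NTERT lines, the replicate block took those with an unadjusted p under 0.05 in read share from 8 to 23 by limma, with 1 called. The replicate block changed no call on glutamine tRNA (MEF charging 1.21, adjusted p = 0.277 by limma for both isoacceptors). The edgeR test listed as an alternative was not run. Judged by read counts, the spread between libraries rather than depth limits the isoacceptor values, and depth limits the lines with under 50 reads. The study describes no collapsing of duplicate reads, so the number of tRNA molecules behind these counts is not known.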
